A study of Homo sapiens with 12 samples.

Results

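The genes described here encode the human translation initiation factors, the proteins that assemble a ribosome with its initiator tRNA at the start codon of an mRNA. They were taken from the count table by symbol: every entry whose symbol begins with EIF and a number from 1 to 6, without the eIF2 kinases (EIF2AK1 to EIF2AK4), which bear the same prefix, and with the 3 binding proteins of eIF4E (EIF4EBP1, EIF4EBP2 and EIF4EBP3). This gave 52 genes of 23500 entries, all protein coding, with 1 entry per symbol. EIF3K and EIF5A each had a second entry with the same counts. Of the 52 genes, 49 had a summed count of at least 10 over the 12 libraries and were tested among 17162 entries. EIF4E1B had 0 counts in every library, EIF2S3B had 4 counts in all, and EIF1AY is counted only.

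The libraries were made from total RNA of HEK293T cells, a human embryonic kidney line that carries adenoviral sequence and the SV40 large T antigen, and of R1, a single clone selected from HEK293T cells for growth without methionine. Both were kept for 12 h either in medium with methionine (+Met) or in medium in which methionine was replaced by its precursor homocysteine (−Met+Hcy). Each of the 4 groups has 3 libraries. HEK293T cells do not proliferate in −Met+Hcy medium and R1 cells do, so the comparisons ask how the mRNAs of the initiation machinery differ between media in each line, and between the lines. The cell line label reads HEK293T also for the R1 libraries, whose titles name R1. Nothing in the labels says that replicates are separate cultures, so p-values measure the spread between these libraries, which may be technical.

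As background, initiation starts when eIF2, loaded with GTP, brings the initiator tRNA to the small ribosomal subunit together with eIF1, eIF1A, eIF3 and eIF5. The cap-binding complex eIF4F, made of eIF4E, the scaffold eIF4G and the helicase eIF4A, recruits the mRNA, and the 4E-binding proteins hold eIF4E away from eIF4G when they are not phosphorylated by mTORC1. eIF2B reloads eIF2 with GTP, a step that is blocked when the alpha subunit of eIF2 is phosphorylated under stress. RNA levels carry no information on either phosphorylation.

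The libraries held 12664158 to 18771349 counts in all. The genes listed for this work as present in HEK293T cells (KRT8, KRT18, VIM, NEFL, NEFM and INA) were detected in each library. They do not by themselves identify the line. Of 8 markers of other cell types, INS, KRT5 and KRT14 were at 0, PTPRC, CD3E and ALB stayed under 1 CPM (a gene's counts scaled to the library's total), EPCAM reached 6.55 CPM, and the collagen gene COL1A1 had 8.22 to 39.8 CPM. One library stood apart. In R1 −Met+Hcy replicate 3, the difference from the other 2 libraries of its group fell with transcript GC content (Spearman's rho -0.744 over 11045 genes, and -0.772 over 46 of the initiation factors). The same measure was -0.339 to 0.538 over all genes in the 9 libraries of the other groups. The common dispersion that edgeR estimated was 0.109 with this library and 0.0349 without it. GC-poor members such as EIF3H (531 CPM against 235 and 202) were high there, and GC-rich members such as EIF6 (21.5 CPM against 119 and 105) were low. Results that rest on it are given with and without it.

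**Figure D1:**
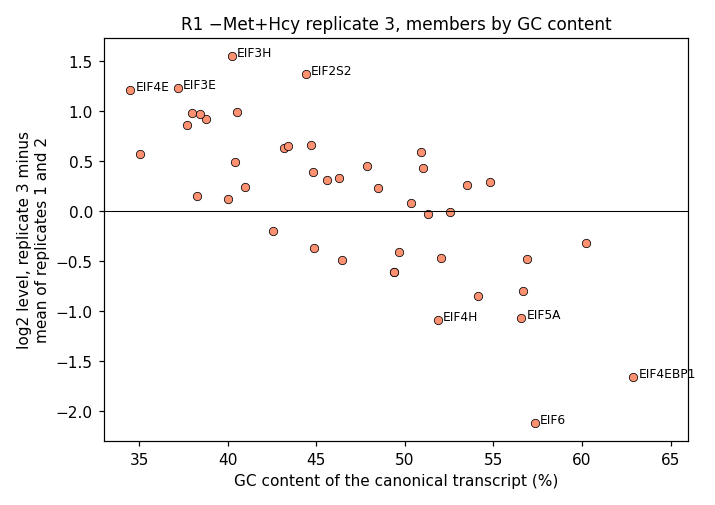
Difference of R1 −Met+Hcy replicate 3 from the mean of replicates 1 and 2 (vertical axis, log2 level) against the GC content of the canonical transcript in percent (horizontal axis), for the 44 members with at least 10 CPM in every group, each a point. The points fall from GC-poor to GC-rich members (Spearman's rho -0.745), from EIF3H at 1.55 to EIF6 at -2.11.

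The initiation factors, summed, took a smaller share of the counts in HEK293T cells without methionine. They held 1.64%, 1.68% and 1.63% of all counts in the 3 HEK293T +Met libraries and 1.39%, 1.45% and 1.42% in −Met+Hcy, and the groups did not overlap (mean 1.65% ± 0.0295 and 1.42% ± 0.0276, SD, n = 3). Abundant genes weigh most in this sum. In HEK293T cells, EIF4A1 fell from a mean of 2424 to 1622 CPM and EIF3E from 1150 to 384 CPM, while EIF1 rose from 329 to 709 CPM. On this scale 32 members had a log2 fold change below 0 and 16 above 0. In R1 cells the share was 1.41%, 1.47% and 1.43% in +Met and 1.32%, 1.32% and 1.33% in −Met+Hcy. The R1 groups did not overlap either, while R1 +Met and HEK293T −Met+Hcy did. In bulk RNA, fewer cells in a given state and less of an mRNA per cell cannot be told apart.

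In HEK293T cells, 8 of the 49 tested members fell in −Met+Hcy medium and 1 rose. Over all entries 2.78% were called lower and 4.25% higher (edgeR's quasi-likelihood test, adjusted p under 0.05). The 8 were 6 subunits of eIF3 (EIF3E, EIF3F, EIF3G, EIF3K, EIF3L and EIF3M), the helicase gene EIF4A1 and its cofactor gene EIF4B. The member that rose was EIF1, which encodes the factor that guards the choice of start codon. The median log2 fold change was -0.47 over the members and 0.03 over all entries, and 41 members lay below 0, against 47.5% of all entries. These fold changes are on library sizes scaled by TMM, a method that takes the bulk of genes as unchanged. On unscaled column sums, the scale of the CPM values, the median of all entries moved to 0.33 and that of the members to -0.17, 32 members lay below 0, and 5 were called lower and 1 higher, against 1.24% and 10.4% of all entries. DESeq2 called 15 members lower and 1 higher, against 5.52% and 7.52%. Members are therefore described relative to the bulk of genes.

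The number of calls depended on which libraries shared the estimate of the spread. Without R1 −Met+Hcy replicate 3, which enters this comparison only through that estimate and the filter on counts, 21 members were lower and 1 was higher, against 12.5% and 15.2% of 17069 entries. With another library left out, 1 to 4 members were lower when it was a HEK293T library, against 0.429% to 1.11% of all entries. Without R1 +Met replicate 1, 5 were lower, against 1.73%. Without each of the remaining R1 libraries in turn, 7 to 10 were lower, against 2.11% to 3.11%. EIF3F was called in all 12 of these fits and EIF4A1 in 4.

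EIF3E (ENSG00000104408), which encodes a subunit of eIF3, changed most. It had 1152, 1065 and 1232 CPM in HEK293T +Met and 329, 371 and 453 CPM in −Met+Hcy, with no overlap between the groups. The log2 fold change was -1.87 ± 0.382 (SE), with an adjusted p of 0.0139. EIF3M (ENSG00000149100, GRCh38 chr11:32583798-32606264) had 403, 407 and 452 CPM in +Met and 202, 235 and 249 CPM in −Met+Hcy (log2 fold change -1.17 ± 0.306, adjusted p = 0.0401). EIF3F (ENSG00000175390, chr11:7970251-8001862), which bears one of the 2 MPN domains of the complex, had 252, 232 and 237 CPM in +Met and 126, 139 and 147 CPM in −Met+Hcy. Its log2 fold change was -1.10 ± 0.159 (adjusted p = 0.00294), the smallest adjusted p of the members in this comparison. In EIF3M and EIF3F every −Met+Hcy library lay under every +Met library.

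EIF3K (ENSG00000178982, chr19:38619082-38636955), whose product forms a peripheral pair with that of EIF3L, had 135, 131 and 154 CPM in +Met and 77.8, 97.7 and 101 CPM in −Met+Hcy (log2 fold change -0.89 ± 0.224, adjusted p = 0.0338). EIF3L fell by 0.85 on the log2 scale (SE 0.169, adjusted p = 0.0123), and EIF3G, an RNA-binding subunit, by 0.74 (SE 0.172, adjusted p = 0.0238). EIF3H, which bears the other MPN domain, had 319, 333 and 356 CPM in +Met and 157, 192 and 197 CPM in −Met+Hcy. These groups did not overlap, but its log2 fold change of -1.17 ± 0.368 did not pass the test (adjusted p = 0.0791) until R1 −Met+Hcy replicate 3 was left out (adjusted p = 0.000601).

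The log2 fold changes of the eIF3 genes ranged from -1.87 (EIF3E) to 0.05 (EIF3A), and differences between subunits were not tested. Of 14 tested genes, 6 were called lower and none higher, against 2.78% and 4.25% of all entries. DESeq2 called 9 lower and none higher, against 5.52% and 7.52%. At an unadjusted p under 0.05, 9 were lower, and the share of all entries was not computed. The log2 fold change was below 0 in 12 of them, EIF3CL had no counts in HEK293T cells, and the median was -0.75. EIF3A, the largest subunit and the scaffold of the complex, had a log2 fold change of 0.05 ± 0.339 (adjusted p = 0.951), with 401, 550 and 355 CPM in +Met and 788, 540 and 346 CPM in −Met+Hcy. The values of EIF3A spread more within a group than between groups. EIF3C, the other core scaffold, had -0.42 ± 0.238 (adjusted p = 0.328), EIF3J, a loosely bound subunit, -0.15, and EIF3I, a WD40 repeat subunit, -0.50. EIF3D and EIF3B, which contact the mRNA and the 40S subunit, had -0.55 (adjusted p = 0.0983) and -0.76 (adjusted p = 0.0925). Both were called lower without R1 −Met+Hcy replicate 3, at adjusted p = 0.00439 and 0.0208. With each library's trend on GC content and transcript length removed as well, EIF3C, EIF3I and EIF3J were also called lower. EIF3A was not called in that fit, in which 34.4% of all entries were lower.

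**Figure D2:**
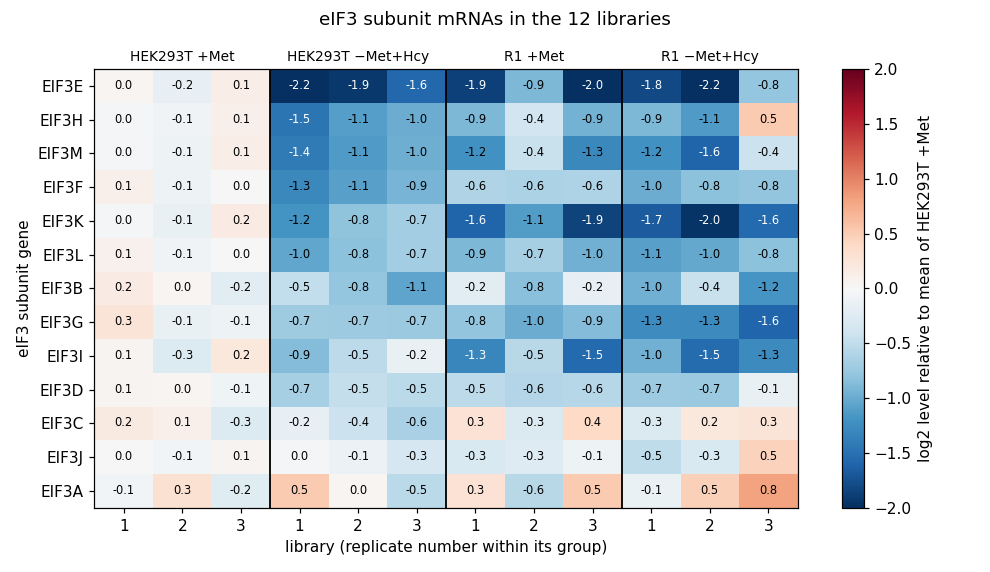
Level of 13 eIF3 subunit mRNAs (rows) in each of the 12 libraries (columns, numbered within the 4 groups), as log2 of the TMM-scaled level relative to the mean of the 3 HEK293T +Met libraries. EIF3E lies between -2.16 and -1.57 in HEK293T −Met+Hcy while EIF3A lies between -0.54 and 0.52, and in R1 −Met+Hcy replicate 3 EIF3H (0.53) and EIF3E (-0.78) lie above the other libraries of the group.

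EIF3C and EIF3CL are near-identical copies on chromosome 16, among which reads may have been split. EIF3CL had 29, 0 and 64 counts in the 3 R1 +Met libraries and 0 counts in the other 9 libraries. EIF3C had 10650, 9801 and 7981 counts in HEK293T +Met and 16440, 11211 and 13034 counts in R1 +Met, so nearly all counts of the pair were assigned to EIF3C. With the pair summed, the same 9 members were called in HEK293T cells. EIF5A and EIF5AL1, EIF2S3 and EIF2S3B, EIF1 and EIF1B, and EIF4A1 and EIF4A2 are also similar in sequence, and their counts are uncertain to the extent that reads were shared.

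Among the genes of mRNA recruitment, 2 of the 4 tested genes of the helicase and its cofactors fell. EIF4A1 (ENSG00000161960, chr17:7572824-7579006), the main RNA helicase of eIF4F, had 2328, 2470 and 2474 CPM in HEK293T +Met and 1384, 1710 and 1772 CPM in −Met+Hcy. Its log2 fold change was -0.87 ± 0.232 (adjusted p = 0.0439). EIF4B (ENSG00000063046, chr12:53006282-53042215), which stimulates the helicase, had 429, 476 and 388 CPM in +Met and 306, 297 and 252 CPM in −Met+Hcy (log2 fold change -0.89 ± 0.186, adjusted p = 0.0152). Neither gene overlapped between the groups. The paralog EIF4A2 had -0.54 ± 0.237 (adjusted p = 0.203), and EIF4H, the smaller relative of EIF4B, -0.47 ± 0.296 (adjusted p = 0.373). On column sums EIF4A1 had -0.58 and was not called (adjusted p = 0.132).

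None of the 6 tested genes of the cap-binding proteins and their scaffolds passed the test, and DESeq2 called none. At an unadjusted p under 0.05, 1 was lower (EIF4E2). edgeR called EIF4E2 (adjusted p = 0.0372) and EIF4G2 (adjusted p = 0.0311) lower without R1 −Met+Hcy replicate 3, and it called both on the 6 HEK293T libraries alone. EIF4E had 129, 141 and 153 CPM in HEK293T +Met and 113, 132 and 143 CPM in −Met+Hcy (log2 fold change -0.41 ± 0.326, adjusted p = 0.503). EIF4G1, the scaffold, had 890, 975 and 747 CPM in +Met and 995, 780 and 555 CPM in −Met+Hcy (-0.47 ± 0.308, adjusted p = 0.3999). In CPM both pairs of groups overlapped. EIF4E2, which forms a repressive cap-binding complex, had -0.63 ± 0.224 (adjusted p = 0.117), and EIF4G2 and EIF4G3 had -0.39 and -0.18.

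The 4 genes of the 4E-binding proteins and eIF4E transporter had values on both sides of 0, and none passed the test in edgeR, in DESeq2 or at an unadjusted p under 0.05. EIF4EBP1 (ENSG00000187840) had 114, 75.6 and 101 CPM in HEK293T +Met and 153, 177 and 180 CPM in −Met+Hcy. The groups did not overlap, but the log2 fold change of 0.52 ± 0.376 did not pass the test (adjusted p = 0.451), nor without R1 −Met+Hcy replicate 3 (adjusted p = 0.0921). It was called higher in the fit on the 6 HEK293T libraries alone, and when each library's trend on GC content and transcript length was removed, with that replicate and without it. EIF4EBP2 had 47.9, 52.2 and 53.0 CPM in +Met and 51.0, 50.4 and 47.6 CPM in −Met+Hcy (-0.33 ± 0.193, adjusted p = 0.332, and 0.0380 without R1 −Met+Hcy replicate 3). EIF4EBP3 was near the limit of detection, with 1.56, 1.03 and 0.429 CPM in +Met and 0.210, 0.999 and 0.526 CPM in −Met+Hcy (-1.06 ± 1.01, adjusted p = 0.582). EIF4ENIF1, the gene of the eIF4E transporter, had 0.01.

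Of the 4 tested genes of start codon choice, EIF1 rose. EIF1 (ENSG00000173812, chr17:41688885-41692668) had 333, 310 and 343 CPM in HEK293T +Met and 631, 736 and 760 CPM in −Met+Hcy, and the groups did not overlap. The log2 fold change was 0.82 ± 0.207 (adjusted p = 0.0346), and on column sums the log2 fold change was 1.11. EIF1 was no longer called when any single HEK293T library or R1 +Met replicate 1 was left out, with the replicate number as a block (adjusted p = 0.0814), or with each library's trend on GC content and transcript length removed (0.46, adjusted p = 0.0667). EIF5, which activates the GTPase of eIF2 and takes part in the same choice, had 323, 359 and 370 CPM in +Met and 506, 574 and 599 CPM in −Met+Hcy. These ranges did not overlap, but the log2 fold change of 0.39 ± 0.296 did not pass the test (adjusted p = 0.477). EIF1B, the close paralog of EIF1, had -0.29 ± 0.191 (adjusted p = 0.408), and EIF1AX -0.63 ± 0.277 (adjusted p = 0.199).

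None of the 10 tested genes of eIF2, of the other tRNA-delivering factors and of eIF2B was called in this comparison. At an unadjusted p under 0.05, 5 of the 10 were lower and none higher, without a share of all entries to compare. DESeq2 called 4 lower (EIF2S1, EIF2D, EIF2B3 and EIF2B5), against 5.52% of all entries. EIF2S1, the gene of the alpha subunit that stress kinases phosphorylate, had 139, 165 and 166 CPM in +Met and 114, 136 and 129 CPM in −Met+Hcy (log2 fold change -0.60 ± 0.208, adjusted p = 0.106). EIF2S2, the beta subunit, had 286, 300 and 274 CPM in +Met and 403, 433 and 428 CPM in −Met+Hcy, without overlap, and a log2 fold change of 0.26 ± 0.310 (adjusted p = 0.664). Of eIF2B, the catalytic subunit EIF2B5 had 54.9, 58.7 and 46.5 CPM in +Met and 46.9, 48.1 and 44.9 CPM in −Met+Hcy (-0.49 ± 0.152, adjusted p = 0.0788), which overlapped in CPM and not on the TMM scale. EIF2B3 had -0.68 (adjusted p = 0.0603), and EIF2B1 had -0.0024. EIF2S1, EIF2D, EIF2A, EIF2B3, EIF2B4 and EIF2B5 were called lower without R1 −Met+Hcy replicate 3, at adjusted p from 0.00587 to 0.0301. In that fit 12.5% of all entries were lower.

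Of the 5 tested late-acting factors, EIF5A, which carries hypusine and helps form the first peptide bonds, had 535, 496 and 530 CPM in HEK293T +Met and 443, 514 and 506 CPM in −Met+Hcy (log2 fold change -0.38 ± 0.2495, adjusted p = 0.393). EIF5B, the GTPase of subunit joining, had -0.44, and EIF6, which keeps free 60S subunits apart, -0.17. With all 12 libraries none of the 5 passed the test in edgeR, in DESeq2 or at an unadjusted p under 0.05. EIF5A was called lower without R1 −Met+Hcy replicate 3 (adjusted p = 0.0453), and EIF5A2, a paralog, on the 6 HEK293T libraries alone.

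**Figure D3:**
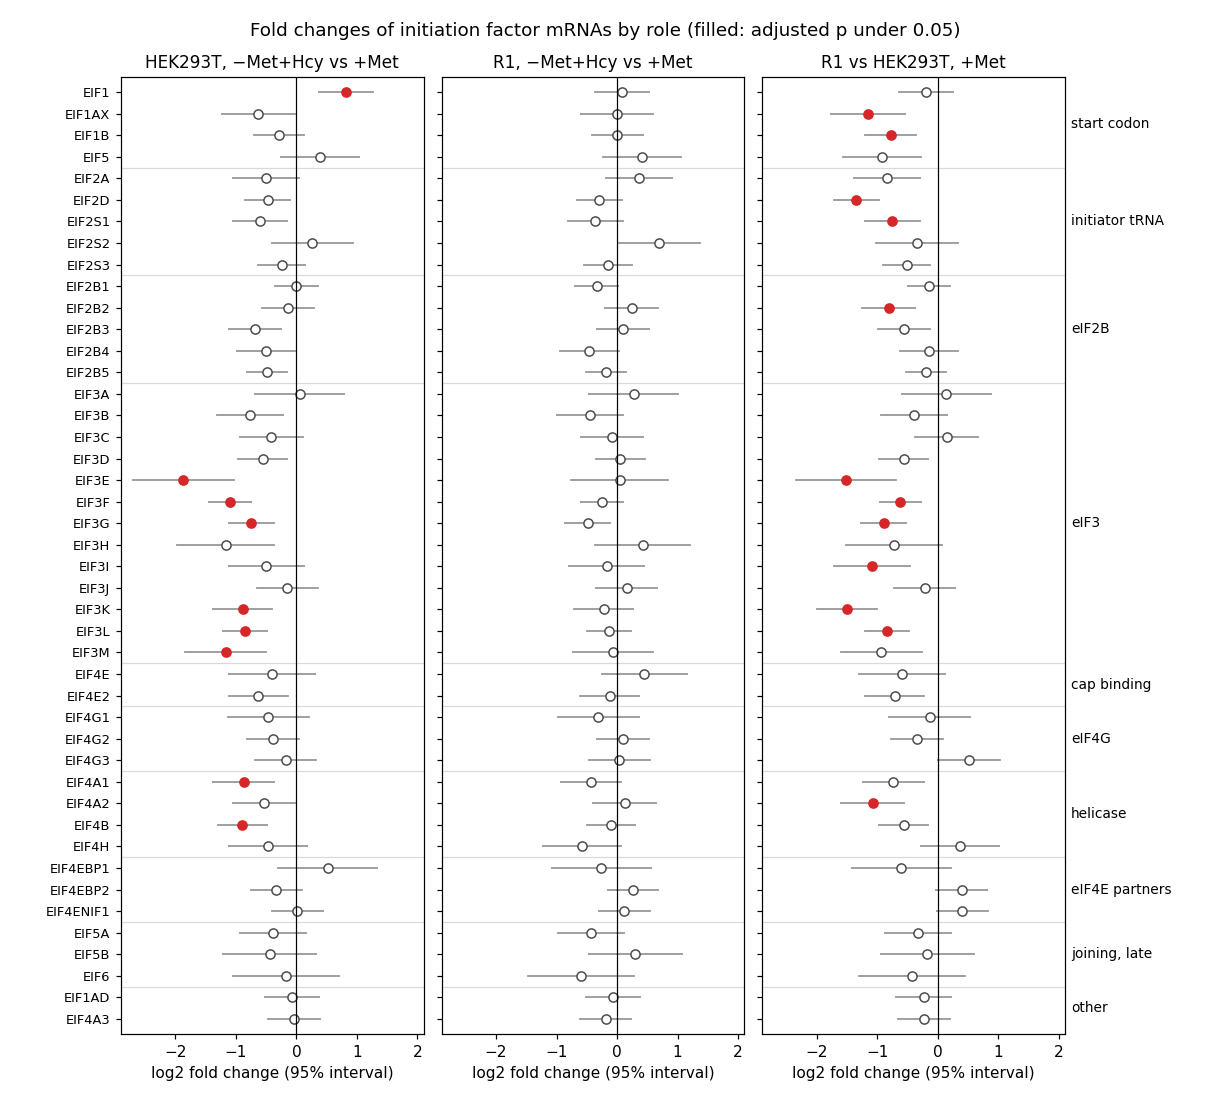
Log2 fold change with its 95% interval (horizontal axis) of the 44 members with at least 10 CPM in every group (rows, ordered by role), for HEK293T −Met+Hcy against +Met, R1 −Met+Hcy against +Met, and R1 against HEK293T in +Met. Filled points passed the test at adjusted p under 0.05: 9 in the left panel, none in the middle and 12 in the right. The left and right panels share the HEK293T +Met libraries.

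**Figure D4:**
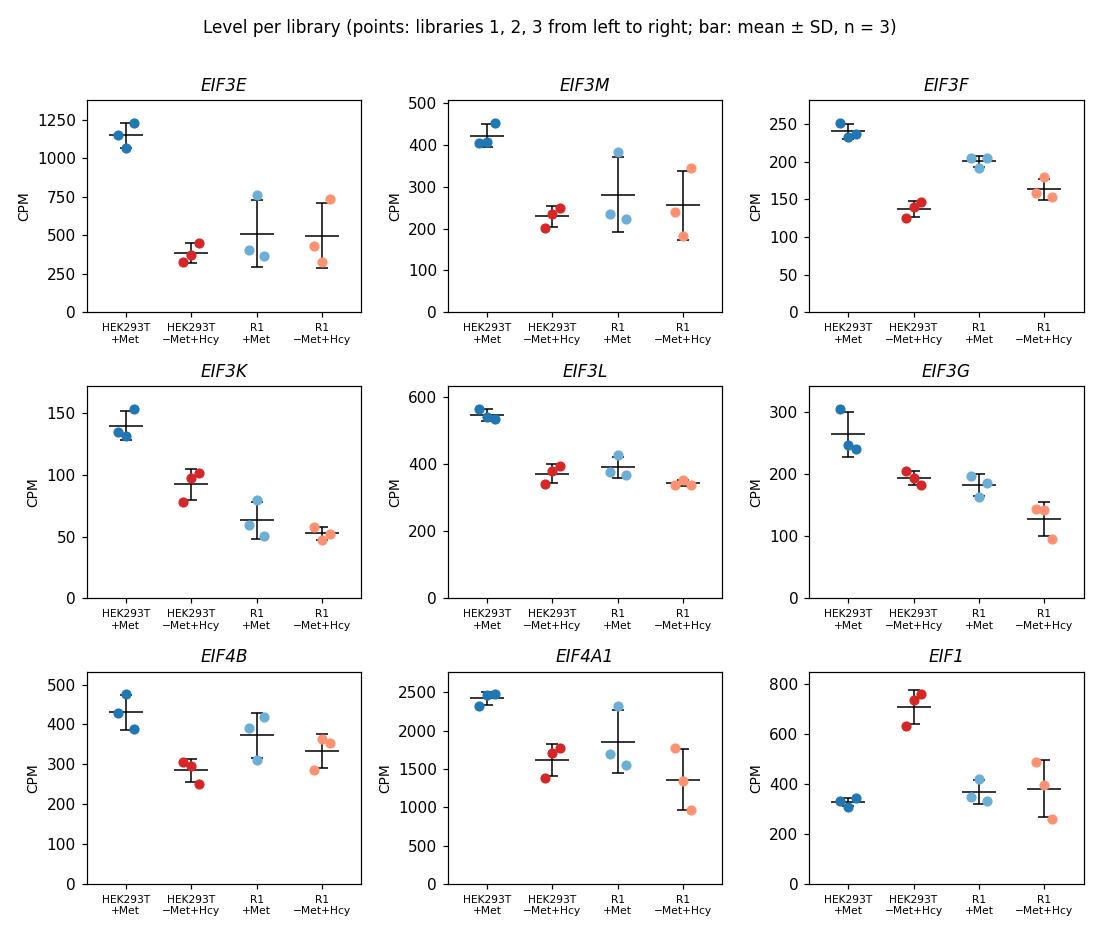
Level in CPM (vertical axis, from 0) of the 9 members called in HEK293T cells, in each library of the 4 groups (points), with the mean and SD of each group (n = 3). In every panel the HEK293T +Met and −Met+Hcy points are separate, while the points of the R1 groups overlap except for EIF3F, EIF3G and EIF3L.

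Annotated transcription starts of the members were then read, since many mRNAs of the translation machinery start with a C followed by a run of pyrimidines, the terminal oligopyrimidine (TOP) motif through which mTORC1 acts on their translation and stability. The sequences are RefSeq's promoter windows (GRCh38.p14, 250 bases before to 50 from the start), found for 44 of the 52 members. EIF2S2, EIF3A, EIF3CL, EIF3E, EIF3G, EIF3H, EIF3L and EIF4EBP1 have no entry in the table used. A C at the start followed by at least 4 bases that are C or T was present in 10 of the 44 (22.7%), and in 5.14% of 27305 genes. The 27305 include genes that were not tested here and so are an unlike background for the members. Among tested genes with an entry, 862 had such a start and 11505 did not. One of the 10, EIF2S3B, was not tested. Of the 5 members called lower in HEK293T cells with an entry, EIF3M, EIF3F, EIF4B and EIF3K had it and EIF4A1 did not. These starts and those of the other tested members with the motif are shown, with the pyrimidine run in capitals, 10 bases before the start and 20 from it:

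EIF3M (chr11:32583821-32583850, plus strand): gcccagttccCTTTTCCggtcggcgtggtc

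EIF3F (chr11:7987327-7987356, plus strand): cttccgcctcCTTCTTTCTCgacaagatgg

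EIF4B (chr12:53006446-53006475, plus strand): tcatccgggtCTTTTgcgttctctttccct

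EIF3K (chr19:38619178-38619207, plus strand): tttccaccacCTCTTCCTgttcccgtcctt

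EIF3D (chr22:36529147-36529176, minus strand): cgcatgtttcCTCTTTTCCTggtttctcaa

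EIF4A2 (chr3:186783567-186783596, plus strand): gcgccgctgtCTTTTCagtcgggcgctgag

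EIF2A (chr3:150546777-150546806, plus strand): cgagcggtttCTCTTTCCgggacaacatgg

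EIF2D (chr1:206612446-206612475, minus strand): ccagccgggcCCTTTTCgcggccgggcccc

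EIF2S3 (chrX:24054946-24054975, plus strand): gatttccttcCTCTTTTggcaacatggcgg

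The starts of EIF1 and EIF4A1, without capitals since they lack the motif, are shown for comparison:

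EIF1 (chr17:41688875-41688904, plus strand): ccgcccctctgccccagtcactgagccgcc

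EIF4A1 (chr17:7572815-7572844, plus strand): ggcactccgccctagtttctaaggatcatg

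The 9 tested members with such a start all lay below 0 in HEK293T −Met+Hcy against +Met, from -1.17 (EIF3M) to -0.25 (EIF2S3), with a median of -0.555. The 32 tested members with another start had a median of -0.41 and ranged from -1.06 to 0.82, with 28 below 0. On column sums, 8 of the 9 lay below 0 (median -0.26, against -0.12 for the 32). In R1 against HEK293T in +Met, which uses the same HEK293T +Met libraries, the 9 had a median of -0.835 and the 32 a median of -0.27. On column sums these were -0.49 and 0.09. The match is to the annotated start only, the starts in use in these cells were not measured, and the 2 classes were not tested against each other.

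The E-box CACGTG, bound by MYC and related factors and the same on both strands, was present in the window of 11 of the 44 members (25.0%) and in 8.77% of all genes. The members include EIF4E, EIF4G1, EIF4B, EIF3F and EIF3K. TGATGNAAN, the element bound by ATF4 with C/EBP factors, was present on either strand in 1 of the 44 (EIF4E3), or 2.27%, and in 4.45% of all genes. All genes are here the 27305 with an entry, tested or not. No overlap between the motifs was required or barred.

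**Figure D5:**
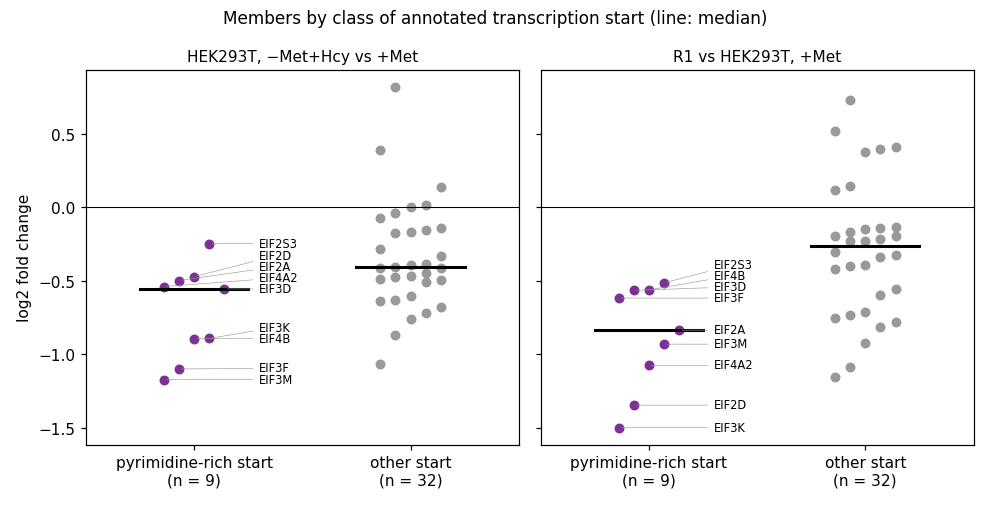
Log2 fold change (vertical axis) of the tested members with a pyrimidine-rich annotated start (n = 9, named) and with another start (n = 32), in HEK293T −Met+Hcy against +Met and in R1 against HEK293T in +Met, which share the HEK293T +Met libraries. Each point is a gene and the line is the median: -0.555 and -0.41 on the left, -0.835 and -0.27 on the right.

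In R1 cells, none of the 49 members was called between the media. edgeR called 0.00583% of all entries higher and 0% lower, and without replicate 3 of −Met+Hcy 0.0176% and 0%, again with no member among them. DESeq2 called no member, and 0.192% of all entries higher and 0.0408% lower. At an unadjusted p under 0.05, edgeR had 1 member higher and 2 lower. EIF3CL, with the counts given above, had a log2 fold change of -8.01 in edgeR. In DESeq2 it had -7.51 ± 4.25 (adjusted p = 0.562). The paper lists EIF3CL among the genes that changed in R1 and in another methionine-independent line, a call not reached here. The median log2 fold change was -0.07 over the members and -0.015 over all entries, and -0.155 over the members without replicate 3. EIF3E had 405, 761 and 368 CPM in R1 +Met and 431, 327 and 735 CPM in −Met+Hcy, overlapping (log2 fold change 0.04 ± 0.370, adjusted p = 0.976), and -0.49 without replicate 3 (adjusted p = 0.817). EIF1 had 347, 421 and 332 CPM in +Met and 487, 396 and 261 CPM in −Met+Hcy (0.07 ± 0.206, adjusted p = 0.899). EIF3G had 197, 163 and 186 CPM and 144, 142 and 95.5 CPM, without overlap (-0.49 ± 0.171, adjusted p = 0.622). EIF3F had 205, 192 and 204 CPM and 158, 179 and 153 CPM, also without overlap (-0.25 ± 0.157, adjusted p = 0.647).

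Over the 46 members with a mean log2 CPM over 2, the medium response of R1 cells correlated with GC content at a Spearman's rho of -0.672 and with transcript length at 0.458. With R1 −Met+Hcy replicate 3, the library with the GC trend, left out, these were 0.0356 and 0.0593. In HEK293T cells they were 0.116 and 0.0332. These are correlations across genes of the same libraries, given as a description. The length is that of the canonical transcript, which need not be the one in use.

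The difference of the medium responses asks whether R1 cells responded otherwise than HEK293T cells. edgeR called no member, 0% of all entries higher in R1 and 0.0583% lower. At an unadjusted p under 0.05, 10 members had a higher response in R1 and 1 a lower one. The share of all entries at that level was not computed, so these counts have no background. Without R1 −Met+Hcy replicate 3 again no member was called, against 0.398% and 1.29% of all entries. DESeq2 called EIF3E (1.93 ± 0.555, adjusted p = 0.0367) and EIF3F (0.86 ± 0.202, adjusted p = 0.00403) higher and no member lower, against 0.524% and 0.903% of all entries. In edgeR the difference was 1.91 ± 0.528 for EIF3E (adjusted p = 0.309) and 0.85 ± 0.223 for EIF3F (adjusted p = 0.280), and without replicate 3 it was 1.38 (adjusted p = 0.0998) and 0.81 (adjusted p = 0.0587). For the other members called in HEK293T cells it was 1.10 for EIF3M, 0.79 for EIF4B, 0.71 for EIF3L, 0.67 for EIF3K, 0.44 for EIF4A1, 0.25 for EIF3G and -0.74 for EIF1, with SE of 0.238 to 0.429 and adjusted p of 0.363 to 0.762. That the 8 lower members were called in HEK293T cells and not in R1 cells does not by itself show a difference between the lines.

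In +Met medium, 12 of the 49 members were lower in R1 than in HEK293T cells and none was higher, against 4.48% and 5.69% of all entries. The medians were -0.42 over the members and 0.02 over all entries. DESeq2 called 21 members lower and none higher, against 7.95% and 8.85% of all entries. At an unadjusted p under 0.05, 21 were lower and 2 higher, and the share of all entries was not computed. The 12 were 6 subunits of eIF3 (EIF3E, EIF3F, EIF3G, EIF3I, EIF3K and EIF3L), EIF1AX, EIF1B, EIF2D, EIF2S1, EIF2B2 and EIF4A2. On column sums the median of all entries was 0.37 and that of the members -0.07, with 6 lower and 3 higher (EIF4EBP2, EIF4ENIF1 and EIF4G3), against 2.08% and 13.1% of all entries.

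Single libraries weighed on this comparison. Without R1 −Met+Hcy replicate 3, which is in neither group, 26 members were lower and 2 (EIF4EBP2 and EIF3CL, with the counts given above) higher, against 15.7% and 17.1% of all entries. R1 +Met replicate 2 lay nearer to HEK293T +Met than replicates 1 and 3 in members such as EIF3E and EIF3I, and without it 19 were lower and 2 (EIF3CL and EIF4G3) higher, against 6.52% and 6.23% of all entries. Without another library of the 2 groups, 3 to 5 were lower, against 1.15% to 2.33% of all entries. EIF2D, EIF3G and EIF3K were called in all 12 fits with a library left out.

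EIF3E had 405, 761 and 368 CPM in R1 +Met, under the 1065 to 1232 CPM of HEK293T +Met (log2 fold change -1.51 ± 0.378, adjusted p = 0.0259). EIF3K had 59.6, 79.8 and 50.1 CPM, under 131 to 154 CPM (-1.50 ± 0.227, adjusted p = 0.00202). EIF2D (ENSG00000143486, chr1:206571292-206612465), which can place tRNA on the 40S subunit without GTP, had 50.9, 54.3 and 48.6 CPM in R1 and 107, 101 and 98.3 CPM in HEK293T cells (-1.34 ± 0.174, adjusted p = 0.000923). This was the smallest adjusted p of the members in this comparison, and the groups did not overlap. EIF1AX, which helps scanning ribosomes, had 163, 268 and 157 CPM in R1 and 310, 314 and 402 CPM in HEK293T cells (-1.15 ± 0.280, adjusted p = 0.0230). EIF3I had 620, 1005 and 528 CPM in R1 and 1204, 1023 and 1354 CPM in HEK293T cells (-1.08 ± 0.287, adjusted p = 0.0332). In EIF3I and EIF1AX, replicate 2 of R1 came close to the HEK293T range.

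The other members called lower were EIF4A2 (-1.07, adjusted p = 0.0154), EIF3G (-0.89, adjusted p = 0.00730), EIF3L (-0.84, adjusted p = 0.00908), EIF2B2 (-0.81, adjusted p = 0.0249), EIF1B (-0.78, adjusted p = 0.0247), EIF2S1 (-0.75, adjusted p = 0.0399) and EIF3F (-0.62, adjusted p = 0.0287). The groups did not overlap on either scale, except for EIF2S1, which overlapped on column sums. EIF4EBP2 had 90.8, 80.0 and 85.9 CPM in R1 and 47.9, 52.2 and 53.0 CPM in HEK293T cells, without overlap, and a log2 fold change of 0.39 ± 0.193 (adjusted p = 0.221, and 0.0153 without R1 −Met+Hcy replicate 3). EIF5 had 195, 313 and 197 CPM in R1 and 323 to 370 CPM in HEK293T cells (-0.92 ± 0.298, adjusted p = 0.0704, and 0.00574 without R1 −Met+Hcy replicate 3). EIF1, which rose in HEK293T cells without methionine, had -0.19 ± 0.206 here (adjusted p = 0.5998), and EIF3M, which fell there, had -0.93 ± 0.305 (adjusted p = 0.0735, and 0.00710 without that library). DESeq2 called both EIF5 (adjusted p = 0.0263) and EIF3M (adjusted p = 0.0288) lower.

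Of 32 genes that act around initiation, all tested, 1 rose and 2 fell in HEK293T −Met+Hcy, against 4.25% and 2.78% of all entries. DESeq2 called 2 of them higher and 5 lower, against 7.52% and 5.52%. PABPC4, a poly(A)-binding protein, had 323, 323 and 265 CPM in +Met and 188, 163 and 143 CPM in −Met+Hcy (log2 fold change -1.18 ± 0.184, adjusted p = 0.00407). MCTS1, whose product releases and recycles tRNA with DENR, had 69.9, 74.0 and 83.9 CPM and 38.7, 50.3 and 54.6 CPM (-0.95 ± 0.257, adjusted p = 0.0453). PPP1R15A, which brings a phosphatase to the alpha subunit of eIF2, had 42.9, 43.0 and 34.7 CPM and 98.9, 94.4 and 90.2 CPM (0.94 ± 0.206, adjusted p = 0.0195). In none of the 3 did the groups overlap. None of the 32 was called by edgeR or DESeq2 in R1 cells between the media or in the difference of the responses, and at an unadjusted p under 0.05 1 was higher and 1 lower in each. In +Met, 4 were lower in R1 than in HEK293T cells and none higher: PABPC4 (-0.74), MCTS1 (-0.998), PPP1R15A (-0.76) and ABCE1 (-0.97), the ribosome recycling factor. Of all entries, 4.48% were lower and 5.69% higher. There DESeq2 called 5 of the 32 lower and 1 higher, against 7.95% and 8.85% of all entries. Without R1 −Met+Hcy replicate 3, 7 were lower and 2 higher in HEK293T −Met+Hcy, against 12.5% and 15.2% of all entries. In R1 in +Met, 7 were then lower and 4 higher, against 15.7% and 17.1%. The median of the 32 in HEK293T cells was -0.10.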

How the data were processed

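The 12 libraries were made from total RNA, and a commercial provider prepared and sequenced them. The authors ran kallisto v0.48.0 on GRCh38. They summed its transcript estimates per Ensembl gene as whole numbers, so the deposited values are expected counts. Whether libraries were stranded is not given in the sources used here. CPM were computed here from column sums. Entries with a summed count of at least 10 (17162 of 23500) were tested with edgeR 4.0.16 (quasi-likelihood, TMM, all 12 libraries in 4 groups, R 4.3.3) and p-values adjusted by Benjamini-Hochberg over all of them. A call is an adjusted p under 0.05 with no fold limit. Counts at an unadjusted p under 0.05 have no share of all entries beside them, since that share was not computed. Errors are SE of the log2 fold change, or SD of CPM with n = 3. DESeq2 1.42.0 was an alternative. The scripts were tested on simulated data with 200 changed genes. The simulated spread was near the common dispersion without R1 −Met+Hcy replicate 3 (0.0349), not that of the reported fit (0.109). No library in it had a GC trend, so it does not show how the tests behave with that replicate. Gene positions and GC content come from GENCODE v44 (15857 tested entries).

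Named were the called members with the largest changes and non-overlapping groups, up to 5 in each direction, a fixed set of 12 (EIF4EBP1, EIF4EBP2, EIF4EBP3, EIF4E, EIF4G1, EIF4A1, EIF4B, EIF2S1, EIF2B5, EIF5A, EIF3C and EIF3CL), and others by role with at least 1 CPM. EIF4EBP3 is in the fixed set. Members and lists were chosen with earlier results of these data known. The fit on column sums and the trend removal without R1 −Met+Hcy replicate 3 were added after seeing the data.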

Additional observations from a re-analysis of the deposited data

How the results depend on the processing

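In HEK293T cells the 8 lower and 1 higher members became 15 and 1 with DESeq2, 23 and 2 with edgeR on the 6 libraries compared, 5 and 1 on column sums, 31 and 1 with each library's trend on GC content and transcript length removed (the 1 being EIF4EBP1 in place of EIF1), 41 and 2 when R1 −Met+Hcy replicate 3 was left out as well, and 3 and 0 with an absolute log2 fold change over 1. With each library left out in turn they ranged from 1 to 21 and from 0 to 1. In R1 against HEK293T in +Met, the 12 lower and 0 higher became 21 and 0, 21 and 2, 6 and 3, 32 and 0, 36 and 1, and 6 and 0 under the same alternatives, and 3 to 26 and 0 to 2 with a library left out. In the difference of the responses, the 0 higher became 2 with DESeq2, 8 with the trends removed and 18 without the replicate as well. Removing the trends moved the median of all entries to -0.26 in HEK293T cells, 0.33 in the difference and -0.32 between the lines, so these counts hold part of that shift. The shares of all entries rose with them. In HEK293T cells, 2.78% of entries were lower in the reported fit, 5.52% with DESeq2, 15.5% on the 6 libraries, 1.24% on column sums, 19.8% with the trends removed and 34.4% without the replicate as well. Between the lines these were 4.48%, 7.95%, 13.4%, 2.08%, 23.4% and 38.8%. In the difference, 0.524% were higher with DESeq2, 4.31% with the trends removed and 11.1% without the replicate as well. With a library left out, the share lower was 0.429% to 12.5% in HEK293T cells and 1.15% to 15.7% between the lines. RLE scaling and both other filters moved no count by over 1.5 times, and the counts in R1 cells stayed at 0 throughout.

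In R1 cells, the change of EIF3E was -0.0389 on column sums, -0.025 with the replicate block, -0.27 with the trends removed and -0.50 without the replicate as well, and that of EIF3G was 0.11 with the trends removed. With a library left out, the R1 changes ranged from -0.10 to 0.22 for EIF1, -0.49 to 0.48 for EIF3E, -0.38 to 0.00841 for EIF3K, -0.46 to 0.26 for EIF3M and -0.24 to 0.0374 for EIF4B. The difference of the responses was -0.0724 for EIF3G on column sums. The cause of these changes was not tested.

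Whether replicate numbers pair the libraries could not be decided. The labels do not say, and deviations within a group sum to 0, which forces some negative correlations. Over 11643 genes, same-numbered libraries deviated from their group means with a correlation of 2.85e-05, -0.06 and 0.48 in HEK293T cells, 0.07, -0.47 and -0.09 in R1 cells and 0.07, -0.47 and -0.50 between the lines, and not every library correlated best with its own number. The fit with the replicate block gave 4 lower and 0 higher in HEK293T cells, against 1.25% and 2.35% of all entries. Between the lines it gave 7 lower and 0 higher, against 2.59% and 3.94%.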

Other observations

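Of 10 genes of translation elongation and termination, edgeR called 1 higher and none lower in HEK293T −Met+Hcy against +Met, DESeq2 1 higher and 1 lower, and an unadjusted p under 0.05 likewise 1 and 1. Of all entries, edgeR called 4.25% higher and 2.78% lower, and DESeq2 7.52% and 5.52%. The median log2 fold change of the 10 was -0.424, beside -0.468 for the initiation factors. In R1 against HEK293T in +Met these medians were -0.453 and -0.422, so shifts of this size were not particular to the initiation factors. GSPT2, which encodes a paralog of the release factor eRF3a, had 15.2, 16.9 and 12.8 CPM in +Met and 38.5, 42.1 and 38.8 CPM in −Met+Hcy, without overlap (log2 fold change 1.122 ± 0.169, adjusted p = 0.00347). In R1 cells it had 20.2, 19.8 and 19.7 CPM in +Met and 25.2, 26.4 and 21.8 CPM in −Met+Hcy (0.34 ± 0.167, adjusted p = 0.622). In +Met, 1 of the 10 was higher and 2 were lower in R1 than in HEK293T cells, against 5.69% and 4.48% of all entries. DESeq2 called 1 higher and 4 lower there, against 8.85% and 7.95% of all entries. EEF1A2, the tissue-restricted form of the factor that brings aminoacyl-tRNA to the ribosome, had 62.5, 51.1 and 48.1 CPM in HEK293T cells and 542, 380 and 548 CPM in R1 cells (2.82 ± 0.342, adjusted p = 0.000572). Its widespread paralog EEF1A1 had 16700, 16600 and 18300 CPM in HEK293T cells and 6060, 9070 and 5500 CPM in R1 cells (-1.67 ± 0.261, adjusted p = 0.00241). The paralogs are similar in sequence, so reads shared between them make both values uncertain. EEF1E1, an accessory protein of the tRNA synthetase complex, had -1.45 ± 0.230 (adjusted p = 0.00257). Without R1 −Met+Hcy replicate 3, 3 of the 10 were lower in HEK293T −Met+Hcy and 7 in R1 in +Met, against 12.5% and 15.7% of all entries.

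Over all tested genes with a RefSeq start, the 862 with a pyrimidine-rich start changed by a median of -0.0835 on the log2 scale in HEK293T −Met+Hcy against +Met, with 37 called higher and 45 lower. The 11505 with another start had a median of 0.0476, with 541 called higher and 314 lower. On column sums the medians were 0.209 (76 higher and 25 lower) and 0.340 (1323 higher and 129 lower), so the first class lay above 0 there. Without R1 −Met+Hcy replicate 3, 116 were higher and 164 lower in the first class and 1870 higher and 1416 lower in the other. The classes were not tested against each other.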
